A study of Mus musculus with 2 samples.

Results

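The retinoid metabolism genes described here are 9 genes of vitamin A handling: the carrier gene Rbp4, the storage enzyme gene Lrat, the saturase gene Retsat, the retinol and retinaldehyde converting genes Rdh10 and Dhrs3, the retinaldehyde dehydrogenase genes Aldh1a1, Aldh1a2 and Aldh1a7, and the retinoic acid hydroxylase gene Cyp26a1. They were taken by symbol from a table of 36808 genes, and all 9 were found. The set was put together with the values of this comparison known, so everything on these genes below is a description without a test. RNA was sequenced from primary hepatocytes, the parenchymal cells of the liver, isolated from C57Bl6 mice and cultured in William E medium with serum, insulin and dexamethasone. One culture library came from cells given GW3965 at 1 µM, a drug-like ligand that activates liver X receptors (LXR), and the other from cells given its solvent DMSO. The table calls its libraries GL and DMSO, and GL is taken here for GW3965, the only other sample in the labels, which is not certain. With 1 library per group, none of the differences has a replicate check.

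Vitamin A is stored in the liver mainly in stellate cells as retinyl esters, and hepatocytes take up dietary retinyl esters and secrete retinol bound to RBP4. Inside a cell, retinol is oxidised to retinaldehyde, a reversible step, and retinaldehyde is then oxidised irreversibly to retinoic acid. Retinoic acid binds the retinoic acid receptors, which act as dimers with the retinoid X receptors (RXR), and RXR is also the partner of the LXRs. CYP26 enzymes hydroxylate retinoic acid for removal.

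Levels are the authors' FPKM, fragments counted per kilobase of transcript and relative to library depth. The division by transcript length allows levels to be set side by side between genes. The spacing of the lowest values places the depth at about 78600000 fragments for GW3965 and 63200000 for DMSO. Differences are log2 ratios of GW3965 over DMSO after adding 1 to each FPKM, which understates differences of low genes. Of the genes, 11796 reached an FPKM of 1 in either library, and the median log2 ratio over these was 0.01. A list of LXR targets was written with earlier results of these data known, so its count is a description without a test. Of its 10 genes at that minimum, 8 were at least 1.5-fold higher in the GW3965 library, where 1.02% of all genes were. These were Abca1, Abcg1, Srebf1, Scd1, Scd2, Lpcat3, Mylip and Fasn. The other 2, Nr1h3 and Smpdl3a, had log2 ratios of -0.29 and -0.15. Abca1, a cholesterol exporter, had 81.1 FPKM in GW3965 and 14.6 in DMSO.

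Sequences of 3 promoters are shown because the pair Aldh1a1 and Aldh1a7 lie together, and because Cyp26a1 carries a known kind of retinoic acid receptor site. They come from RefSeq, build GRCm38.p6, while gene positions given with expression values are those of the deposited table in mm9. The stretches of Aldh1a1 (chr19:20601858-20601987, plus strand) and Aldh1a7 (chr19:20727537-20727666, minus strand) run from 110 bases before the annotated start to 20 bases from it on, 5′ to 3′, and capitals mark the bases that differ between them.
Aldh1a1: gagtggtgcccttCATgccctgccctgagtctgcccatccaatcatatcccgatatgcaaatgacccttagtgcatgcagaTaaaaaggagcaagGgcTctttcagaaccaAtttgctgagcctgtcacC
Aldh1a7: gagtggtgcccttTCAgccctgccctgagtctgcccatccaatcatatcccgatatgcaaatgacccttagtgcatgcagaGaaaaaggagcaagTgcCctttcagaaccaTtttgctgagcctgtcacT
These stretches were chosen as the most alike part and were identical at 122 of 130 bases, while the whole windows of 300 bases were identical at 224 of 318 aligned positions (70.4%). The stretch of Cyp26a1 (chr19:37697736-37697832, plus strand) has in capitals a direct repeat of AGTTCA with 5 bases between the copies, read on the opposite strand, from position -32 to position -16 relative to the annotated start.
Cyp26a1: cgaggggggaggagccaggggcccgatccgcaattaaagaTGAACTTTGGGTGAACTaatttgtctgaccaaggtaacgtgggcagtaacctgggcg

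Aldh1a1 was the member with the largest difference and was lower in the GW3965 library, while Rdh10 was the 1 member at least 1.5-fold higher. Aldh1a7 was also at least 1.5-fold lower. Dhrs3 and Cyp26a1 were lower by less than that, Retsat and Rbp4 lay close to 0, and Aldh1a2 and Lrat stayed under the minimum FPKM in each library. Of the 7 members at the minimum FPKM, 1 was thus at least 1.5-fold higher, where 1.02% of all 11796 genes were, and 2 were at least 1.5-fold lower, where 1.33% of all genes were. The members were chosen on these differences, so nothing is read from those shares. The median log2 ratio of the 7 was -0.48.

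**Figure D1:**
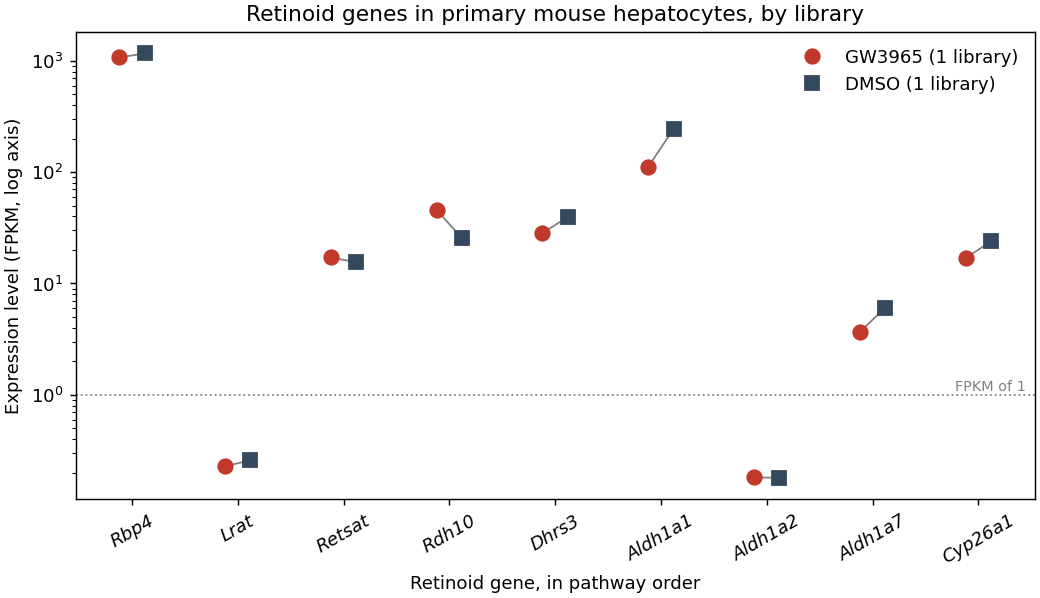
Expression level of the 9 retinoid genes in FPKM on a log axis, with 1 point per library, the GW3965 library (circles) left of the DMSO library (squares). Aldh1a1 stands at 112 FPKM in GW3965 and 244 in DMSO, Rdh10 at 45.8 in GW3965 and 25.5 in DMSO, and Lrat and Aldh1a2 lie under the dotted line at an FPKM of 1.

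Rbp4 encodes the plasma carrier that takes retinol out of the liver (ENSMUSG00000024990, chromosome 19, 38191110 to 38199811, mm9). Its level was 1072 FPKM in GW3965 and 1164 FPKM in DMSO, the highest of the 9 genes in both libraries, and the log2 ratio was -0.12. Its partner in plasma, transthyretin, encoded by Ttr, stood at the same log2 ratio of -0.12, with 189 FPKM in GW3965 and 205 in DMSO. Lrat encodes lecithin retinol acyltransferase, which makes retinyl esters and is in liver chiefly a stellate cell enzyme (ENSMUSG00000028003, chromosome 3, 82680627 to 82747560, a locus shared in the table with 4930564K09Rik, which was listed at 0). Lrat was at 0.228 FPKM in GW3965 and 0.259 in DMSO, about 93 fragments in GW3965 and 84.6 in DMSO. The Lrat fold was 0.881 with an exact 95% interval of 0.649 to 1.20 from counting alone, so no difference was detectable at this depth.

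Retsat encodes retinol saturase, which saturates a double bond of retinol (ENSMUSG00000056666, chromosome 6, 72548469 to 72558408). It had 17.1 FPKM in GW3965 and 15.5 in DMSO, a log2 ratio of 0.13. Among GENCODE M21 transcripts, 16.4% of the 25-base words of Retsat also occur in Gm45053. The authors' deposited table lists no gene of that name within 200 kb of Retsat. Whether the overlap touches the deposited Retsat level was not tested.

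Rdh10 and Dhrs3 act on the same step in opposite directions. Rdh10 encodes the dehydrogenase that oxidises retinol to retinaldehyde (ENSMUSG00000025921, chromosome 1, 16095855 to 16123815), and it had 45.8 FPKM in GW3965 and 25.5 in DMSO. The log2 ratio of Rdh10 was 0.82, a level 180% of that in DMSO. Rdh10 included, 56 of the 11796 genes had a ratio this high or higher. In the authors' deposited table Rdh10 had a log2 fold of 0.84, p = 5.70e-06 and q = 0.00359 with a call. Dhrs3 encodes a reductase that turns retinaldehyde back to retinol and that retinoic acid is known to induce (ENSMUSG00000066026, chromosome 4, 144482730 to 144518112). It had 28.3 FPKM in GW3965 and 39.7 in DMSO, a log2 ratio of -0.48, and the authors' deposited table gives Dhrs3 p = 0.0411 and q = 1.00 without a call. The levels of the pair changed places: Rdh10 stood at 1.62 times the FPKM of Dhrs3 in GW3965 and at 0.642 times in DMSO.

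Aldh1a1 encodes the main retinaldehyde dehydrogenase of adult mouse liver, which also oxidises other aldehydes (ENSMUSG00000053279, chromosome 19, 20676451 to 20717952). It had 112 FPKM in GW3965 and 244 in DMSO, about 19338 fragments in GW3965 and 33535 in DMSO, a log2 ratio of -1.12. The level in GW3965 was 45.9% of that in DMSO, with an exact 95% interval of the fold of 0.451 to 0.467 that covers counting error only. Of 734 protein-coding genes at or above 100 FPKM in DMSO, 3 were 2-fold lower or more in GW3965, namely Aldh1a1, Hamp and Lars2, a group chosen after their values were seen. In the authors' deposited table Aldh1a1 had p = 9.45e-09 and q = 1.02e-05 with a call, and among its 18 lower calls Aldh1a1 had the highest DMSO level. The authors' deposited table calls 43 of 15090 tested genes (0.285%), and of the 9 retinoid genes it calls Aldh1a1 and Rdh10. That test has 1 library on each side, so it speaks of these libraries and not of the treatments.

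Aldh1a7 is a rodent paralog of Aldh1a1 with little known activity toward retinaldehyde (ENSMUSG00000024747, chromosome 19, 20767443 to 20802052). It lay 49.5 kb from Aldh1a1 and had 3.66 FPKM in GW3965 and 6.06 in DMSO, about 550 fragments in GW3965 and 722 in DMSO. Its log2 ratio was -0.60, just past the 1.5-fold line at -0.58, and at -0.35 it was within that line with a pseudocount of 5. The authors' deposited table gives Aldh1a7 p = 0.00545 and q = 0.548 without a call. The transcripts of Aldh1a1 and Aldh1a7 were identical at 88.8% of aligned positions, with a longest identical run of 100 bases, and 17.7% of the 25-base words of Aldh1a7 also occur in Aldh1a1. Since Aldh1a1 stood at 30.5 times the FPKM of Aldh1a7 in GW3965 and at 40.2 times in DMSO, the Aldh1a7 values are uncertain, and the part of shared reads in them was not tested. No other gene of the table within 200 kb of the pair reached an FPKM of 1.

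Aldh1a2 encodes the retinaldehyde dehydrogenase best known from the embryo (ENSMUSG00000013584, chromosome 9, 71063596 to 71144050). It had 0.181 FPKM in GW3965 and 0.180 in DMSO, about 30 fragments in GW3965 and 23.7 in DMSO, and the counting interval of the fold ran from 0.569 to 1.80. Its log2 ratio was 0.0013, and -0.0093 after centring on the median of all genes, so it has no direction. Aldh1a1 made up 96.7% of the summed FPKM of the 3 dehydrogenase genes in GW3965 and 97.5% in DMSO, and that sum was 116 FPKM in GW3965 and 250 in DMSO.

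Cyp26a1 encodes the hydroxylase that clears retinoic acid and is among the best known genes induced by it (ENSMUSG00000024987, chromosome 19, 37772298 to 37776018). It had 16.9 FPKM in GW3965 and 23.9 in DMSO, a log2 ratio of -0.48, close to that of Dhrs3. The authors' deposited table gives Cyp26a1 p = 0.0113 and q = 0.804 without a call. The derived standard errors of the authors' log2 folds rest on 1 library per group, without replicate cultures. These errors were 0.20 for Cyp26a1, 0.24 for Dhrs3, 0.20 for Aldh1a1, 0.19 for Rdh10 and 0.26 for Aldh1a7. How the authors' test set the spread between libraries is not given. The related Cyp26b1 had 9.61 FPKM in GW3965 and 12.6 in DMSO (log2 ratio -0.36), and Cyp26c1, 4.41 kb from Cyp26a1, was below an FPKM of 1 at 0.648 in GW3965 and 0.716 in DMSO. Cyp2c39 was lower still, at 0.0230 in GW3965 and 0.0190 in DMSO.

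**Figure D2:**
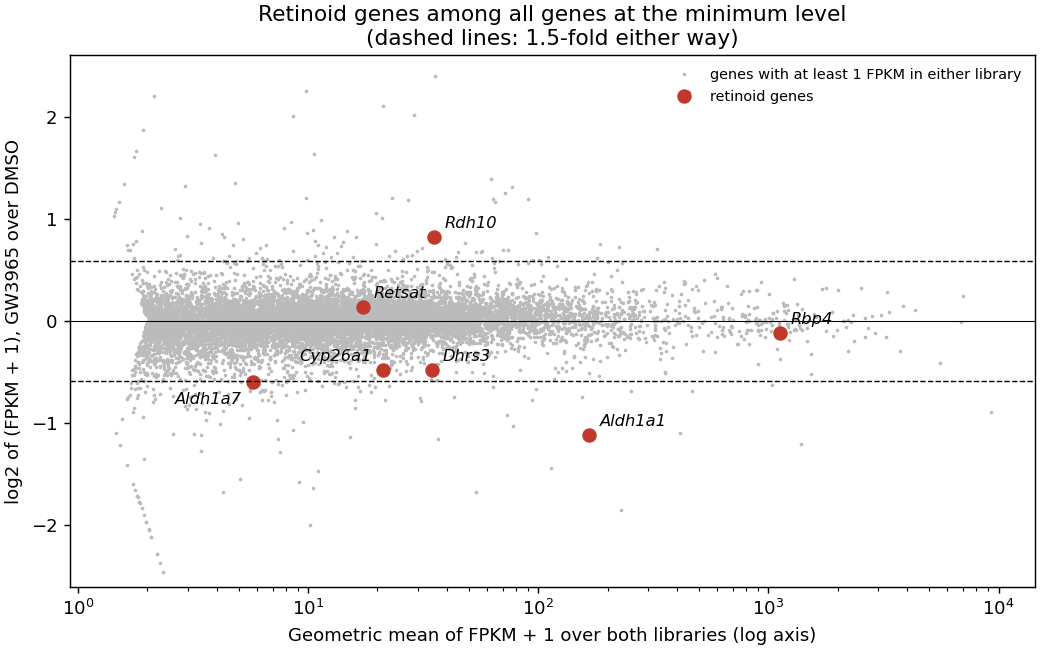
The log2 ratio of (FPKM + 1), GW3965 over DMSO, against the geometric mean of FPKM + 1 on a log axis, for the 11796 genes at the minimum FPKM (grey), of which 15 lie outside the plotted range, and for the 7 retinoid genes among them (red). Aldh1a1 at -1.12 and Rdh10 at 0.82 lie outside the dashed 1.5-fold lines, and Aldh1a7 at -0.60 lies on the edge of the lower one.

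Of the other genes of retinoid metabolism, a list of 57 with 56 in the table, 37 reached the minimum FPKM. Of these 3 were at least 1.5-fold higher (Fabp5, Rdh11 and Pnpla3) and 0 at least 1.5-fold lower, against 1.02% and 1.33% of all genes. Their median log2 ratio was -0.05, and 26 of the 37 had a ratio below 0, against 47.1% of all genes. Fabp5, a binding protein for fatty acids that also carries retinoic acid, had 420 FPKM in GW3965 and 257 in DMSO (log2 ratio 0.70). Rdh11, a reductase of retinaldehyde and other aldehydes, had 55.5 in GW3965 and 34.4 in DMSO (0.68). Pnpla3, a lipase that in human stellate cells releases retinol from its esters, had 1.35 in GW3965 and 0.360 in DMSO (0.79). Without the pseudocount the fold of this low gene was 3.75, above the 1.80 of Rdh10. With a pseudocount of 5 or a minimum FPKM of 5, only Fabp5 and Rdh11 counted as higher. In the authors' deposited table Pnpla3 was called with q = 1.76e-05, while Fabp5 (q = 0.0877) and Rdh11 (q = 0.258) were not.

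By role, the 13 other genes of retinol oxidation and retinaldehyde reduction at the minimum FPKM had a median log2 ratio of -0.08, with Adh5, an alcohol dehydrogenase, at 69.1 FPKM in GW3965 and 71.7 in DMSO and Dhrs7 at 40.3 in GW3965 and 47.1 in DMSO. The 3 other genes of retinaldehyde oxidation at the minimum lay below 0. Aox1, an aldehyde oxidase, had 12.9 FPKM in GW3965 and 15.1 in DMSO (-0.22). Aldh8a1 had 0.807 FPKM in GW3965 and 1.37 in DMSO (-0.39), and Aox3 had 0.637 FPKM in GW3965 and 1.02 in DMSO (-0.30). Without the pseudocount, the folds of these low genes were 0.590 for Aldh8a1 and 0.625 for Aox3, and with a pseudocount of 0.1 both were at least 1.5-fold lower. The 8 genes of ester formation, hydrolysis and carotenoid cleavage had a median of -0.05, with Bcmo1, the carotene cleaving oxygenase, lowest at -0.49. The highest levels in that group were those of Pnpla2, a triglyceride lipase, at 42.8 FPKM in GW3965 and 39.1 in DMSO, and Dgat1, an acyltransferase, at 18.4 in GW3965 and 18.9 in DMSO. Among carriers, Scarb1, a receptor for lipoproteins that also takes up carotenoids, stood at 0.07 and 1300002K09Rik, matched as the retinol receptor gene Stra6l, at -0.33. The receptors lay near 0: of 7 at the minimum FPKM the median was 0.01, with Rxra at 23.7 FPKM in GW3965 and 22.0 in DMSO, Rxrb at 24.7 in GW3965 and 25.2 in DMSO, and Rara at 14.2 in GW3965 and 13.9 in DMSO.

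**Figure D3:**
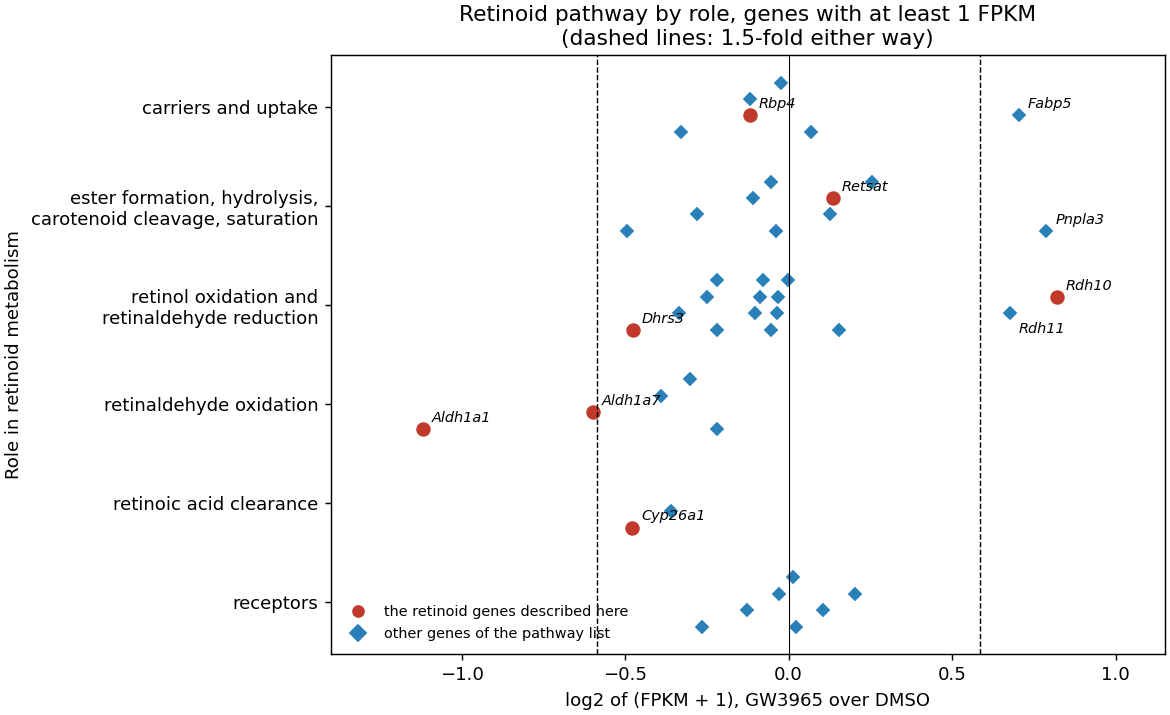
The log2 ratio of (FPKM + 1), GW3965 over DMSO, for retinoid pathway genes with at least 1 FPKM in either library, in rows by role, with the genes described here as red circles and the other genes of the pathway list as blue diamonds. Aldh1a1 at -1.12 stands farthest to the left and Rdh10 at 0.82 farthest to the right. The added 1 draws the low gene Pnpla3 in to 0.79, from 1.91 without it. The 7 receptors lie between -0.27 and 0.20.

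Of 9 genes known to respond to retinoic acid at the minimum FPKM, 6 had a ratio below 0 and 3 above. The 9 include the members Cyp26a1 and Dhrs3, chosen with their values known, so nothing is read from that split. The lowest were Cyp26a1 and Dhrs3 at -0.48 each and Cyp26b1 at -0.36, all given above. That list also holds Lrat, which was below the minimum. Beside Cyp26a1, Dhrs3 and Lrat, 7 of the 15 other genes of that list reached the minimum FPKM. Of these, 0 passed 1.5-fold in either direction, where 2.35% of all genes did. Their median log2 ratio was -0.02, with 4 below 0 and 3 above, where 47.1% of all genes were below 0. Tgm2, a transglutaminase, had 311 FPKM in GW3965 and 330 in DMSO (-0.08). Rarres2, which encodes the adipokine chemerin, had 291 in GW3965 and 282 in DMSO (0.04), and Nrip1, a nuclear receptor corepressor, had 14.4 in GW3965 and 10.6 in DMSO (0.41). Rarb, the receptor gene that retinoic acid is best known to induce, had 7.98 in GW3965 and 8.82 in DMSO (-0.13).

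Marker genes of the cells these cultures could hold were read beside these values, since in bulk RNA fewer cells of a type and less RNA per cell cannot be told apart. Of 13 hepatocyte markers with a usable value, 12 reached the minimum FPKM, 1 was at least 1.5-fold lower (Ahsg, the plasma protein fetuin, at -0.63) and the median was -0.14, with summed levels of 5073 FPKM in GW3965 and 6086 in DMSO. The 12 split into 5 with a ratio above 0 and 7 below, from Cps1, a urea cycle enzyme, at 0.31 to Ahsg, with Apoa1 at 0.14 and Hnf4a, the hepatocyte transcription factor, at -0.39. Of the difference between the sums, Fgb, a fibrinogen chain, accounted for -458 FPKM and Ahsg for -453 FPKM. Alb and Trf had no usable estimate. Of 17 stellate cell and fibroblast markers, 13 reached the minimum, 0 passed 1.5-fold and the median was 0.13. The 13 split into 9 with a ratio above 0 and 4 below, from Lum at -0.13 to Acta2 at 0.37. All 17 summed to 110 FPKM in GW3965 and 104 in DMSO. Of these sums Dcn alone gave 65.6 in GW3965 and 64.8 in DMSO. Macrophage markers summed to 212 FPKM in GW3965 and 208 in DMSO, with 0 of the 7 at the minimum past 1.5-fold. Their median log2 ratio was -0.10, with 5 below 0 and 2 above. Cd68 alone gave 93.9 FPKM of that sum in GW3965 and 74.9 in DMSO. Of all genes, 2.35% were past 1.5-fold in either direction. Endothelial markers summed to 180 FPKM in GW3965 and 156 in DMSO. Their median log2 ratio was 0.19, with 7 of 8 above 0. Among the 7 is Pecam1, with 42.6 FPKM in GW3965 and 35.1 in DMSO, which the authors' deposited table marks as failed. The 1 below 0 was also the 1 past 1.5-fold, Clec4g at -0.66, a low gene with 0.996 FPKM in GW3965 and 2.14 in DMSO. Cholangiocyte markers summed to 30.7 FPKM in GW3965 and 28.7 in DMSO, with 0 of 3 past 1.5-fold and a median log2 ratio of 0.07. No listed marker was at 0 in both libraries. All 6 mesothelial markers lay under an FPKM of 1. The part of hepatocyte content in the lower Aldh1a1, Dhrs3 and Cyp26a1 levels was not tested.

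Promoter windows of 300 bases were found for 8 of the 9 genes, and none for Rdh10. A direct repeat with 5 bases between its copies, each copy AGGTCA or AGTTCA, on either strand, was found in 0.0396% of 32851 windows, among them that of Cyp26a1 as shown above. The same copies with 4 bases between them, the spacing known for LXR with RXR, were found in 0.0274% of windows. None of the 8 members with a window had them. At so low a share that absence says nothing on LXR sites. The letters ATGCAAAT, known as the octamer, were found in 1.74% of windows, among them those of Aldh1a1, Aldh1a2 and Aldh1a7, and in the printed Aldh1a1 and Aldh1a7 stretches they lie from position -56 to position -49. A match of letters is a description and not evidence of binding.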

How the data were processed

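Libraries were prepared from total RNA with a TruSeq kit, per the labels' protocols. CASAVA, TopHat2 2.0.6, Cufflinks 2.0.2, Cuffdiff and the builds mm9 and NCBIM37 are named in the submitters' processing notes. The sources used here give no settings, strand handling or library scaling.

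The deposited values are FPKM, 1 column per library, per the file headers. The authors' table adds a log2 fold, a score from their test with a sign opposite to the fold, a q-value and a p-value, per the file headers. The 7 genes marked for too many fragments were left out. Genes that the authors' table marks as failed or not tested were kept. Table starts were taken as counted from 0.

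Ratios used a pseudocount of 1, a minimum FPKM of 1 in either library and a size rule of 1.5-fold. The rule was run on simulated data whose noise was set by hand and not taken from replicate cultures. That run therefore gives the rule no support for these libraries. Standard errors were derived as the size of the authors' log2 fold over the size of their score. Fragments were estimated from the steps between low values and the longest coding transcript in GENCODE M21, and intervals made from them hold counting error alone. Named genes were all members, list genes past 1.5-fold, the 3 highest of each retinoid list, and the 3 genes of nearest ratio; further genes were chosen after their values were seen. The members and lists were chosen with earlier results of these data known. The tools were Biopython 1.88, matplotlib 3.10.9, scipy 1.17.1, pandas 2.3.3 and numpy 2.4.6 under Python 3.11.15.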

Additional observations from a re-analysis of the deposited data

How the results depend on the processing

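The 8 alternatives were a pseudocount of 0.1 or 5, a minimum FPKM of 5 or none, a 2-fold threshold, subtraction of the median of all genes, equal FPKM sums, and restriction to genes the authors tested. Under them Aldh1a1 stayed between -1.13 and -1.09, Rdh10 between 0.74 and 0.84, Aldh1a7 between -0.71 and -0.35, Dhrs3 between -0.49 and -0.43 and Cyp26a1 between -0.50 and -0.40. With a pseudocount of 5, members at least 1.5-fold lower numbered 1. At 2-fold they numbered 1, with 0 members and 0 other pathway genes higher. Without a minimum the median of the members was -0.12 and that of the other pathway genes -0.027. With a pseudocount of 0.1 that median was -0.082, and 2 other pathway genes, Aldh8a1 and Aox3, were at least 1.5-fold lower. Over all genes, 120 were higher and 157 lower, against 194 and 320 with a pseudocount of 0.1, 56 and 56 with 5, and 39 and 55 at 2-fold, and at a minimum FPKM of 5 there were 82 lower. The share of higher genes among all past 1.5-fold was 43.3%, and 51.5% at a minimum FPKM of 5. Pseudocounts act by construction on low genes, and the minimum on which genes are counted. No paired analysis was possible because there is 1 library for each treatment. Depth limits Lrat and Aldh1a2.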

Other observations

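Among 6368 other protein-coding genes with at least 10 FPKM in either library, those with the log2 ratio nearest to Aldh1a1 were Bdh1, a ketone body enzyme (3.97 FPKM in GW3965, 10.03 in DMSO, -1.15), Mup20, a major urinary protein (23.4 in GW3965 and 53.5 in DMSO, -1.16), and Lars2, the mitochondrial leucyl-tRNA synthetase (53.1 in GW3965 and 109 in DMSO, -1.03). Nearest to Rdh10 were G0s2, an inhibitor of adipose triglyceride lipase (16.2 in GW3965 and 8.72 in DMSO, 0.82), 5430411K18Rik (13.0 in GW3965 and 7.15 in DMSO, 0.78) and Ggct, the gamma-glutamyl cyclotransferase (17.6 in GW3965 and 9.87 in DMSO, 0.78). A likeness over 2 libraries is a likeness of 1 difference only.

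Genes next to the members in the table differed in their ratios. Within 200 kb of Lrat, the fibrinogen genes Fga (367 FPKM in GW3965 and 591 in DMSO, -0.69) and Fgg (199 in GW3965 and 320 in DMSO, -0.68) were at least 1.5-fold lower, and Fgb stood at -0.30. Within 200 kb of Rbp4, O3far1, a low gene, had a log2 ratio of 0.46. Within 200 kb of Rdh10, Rpl7, a ribosomal protein gene, had 1076 FPKM in GW3965 and 1022 in DMSO (0.07), and Stau2, an RNA-binding protein gene, had 3.94 in GW3965 and 3.96 in DMSO (-0.0046). Within 200 kb of Cyp26a1, Exoc6, an exocyst subunit gene, had 9.78 in GW3965 and 10.6 in DMSO (-0.11), and Myof, the myoferlin gene, had 49.0 in GW3965 and 42.5 in DMSO (0.20).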
